A study of Mytilus galloprovincialis with 18 samples.

Results

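Transcripts grouped here as antimicrobial peptides and haemocyte effectors were followed in the gills of mussels exposed to a mixture of cadmium, copper and mercury. They were represented by 5 probe IDs, or 0.26% of those on a spotted cDNA array with 3840 spots and 2 spots per ID, namely mytimacin-2 (Myt01-012A08), mytimacin-4 (Myt01-014E06), a defensin-like transcript (Myt01-004D04), macrophage expressed protein (Myt01-006G09) and beta-microseminoprotein (Myt01-016C09). The probes were picked by their descriptions in the study's lists of responsive probes. These descriptions rest on sequence similarity, and an origin of the transcripts in haemocytes was not tested. All 5 probes are listed there for 200 nM and only mytimacin-4 and beta-microseminoprotein also for 100 nM. Their low values at those doses were thus the reason they were chosen. These values are given below as a description, and tests are reported at 50 nM for all 5 probes and at 100 nM for the other 3. The study's 100 nM list left out these 3 on the same arrays, so a lack of calls at 100 nM is not independent of that split.

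Haemocytes are the circulating defence cells of bivalves. They move through the open vessels of the gill, the organ that faces the filtered water, and they release small cysteine-rich peptides and pore-forming proteins that damage microbes. A half-gill sample holds haemocytes together with ciliated epithelium, so fewer haemocytes and less of a transcript per cell cannot be told apart in its RNA.

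Adult Mytilus galloprovincialis of mixed sex from 1 offshore farm were kept for 48 h with equimolar chlorides of Cd, Cu and Hg at 50, 100 or 200 nM. The gill RNA of 3 mussels per dose, 9 in all, was set individually against 1 pool of gill RNA from 5 unexposed mussels. Each mussel was hybridised on 2 arrays with exchanged dyes, array A with the pool in Cy5 and array B with the pool in Cy3, giving 18 arrays. Each dose had a single tank and the controls a separate one, so dose and tank cannot be told apart. The pool is 1 control sample, and a test of a log2 ratio against 0 leaves out the spread between control mussels. All values below are log2 ratios of mussel over pool, so that -1 means that the mussel's signal was 0.5 of the pool's, averaged over the 2 spots of a probe and the 2 arrays of a mussel.

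The arrays had median spot intensities between 245 and 2788 in the channel of the pool and between 361 and 1334 in that of the mussel, and between 1 and 49 spots per channel were saturated. The third mussel at 50 nM ran against the others. Over all probes its ratios correlated with those of the 8 other mussels at -0.14 on average on arrays A (-0.31 to 0.061) and at -0.14 on arrays B (-0.25 to 0.027), while the other mussels correlated among themselves at 0.20 and 0.24. The labelled dyes set its direction, which was kept, and 50 nM values are given with and without it.

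On 2 arrays part of the spot grid did not match the probe list. In each of the 16 print blocks of each array, spot intensity was compared with the mean of the other 17 arrays. In 281 of 288 blocks r was 0.61 to 0.99 (median 0.95). In 6 blocks of array A of the second mussel at 50 nM, and in 1 block of array A of the second mussel at 100 nM, r was between -0.042 and 0.14. Read 1 column over in the former and 1 row over in the latter, the same blocks gave r between 0.86 and 0.93. The intensities listed there therefore followed those of the neighbouring spot position. These blocks hold mytimacin-2 and mytimacin-4 on the 50 nM array and the defensin-like probe on the 100 nM array. Values are given as deposited, which here means ratios recomputed from the deposited intensities at their listed positions, not the authors' processed ratios. They are followed by those with the blocks realigned by that 1 position, an alternative chosen after seeing the data.

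**Figure D1:**
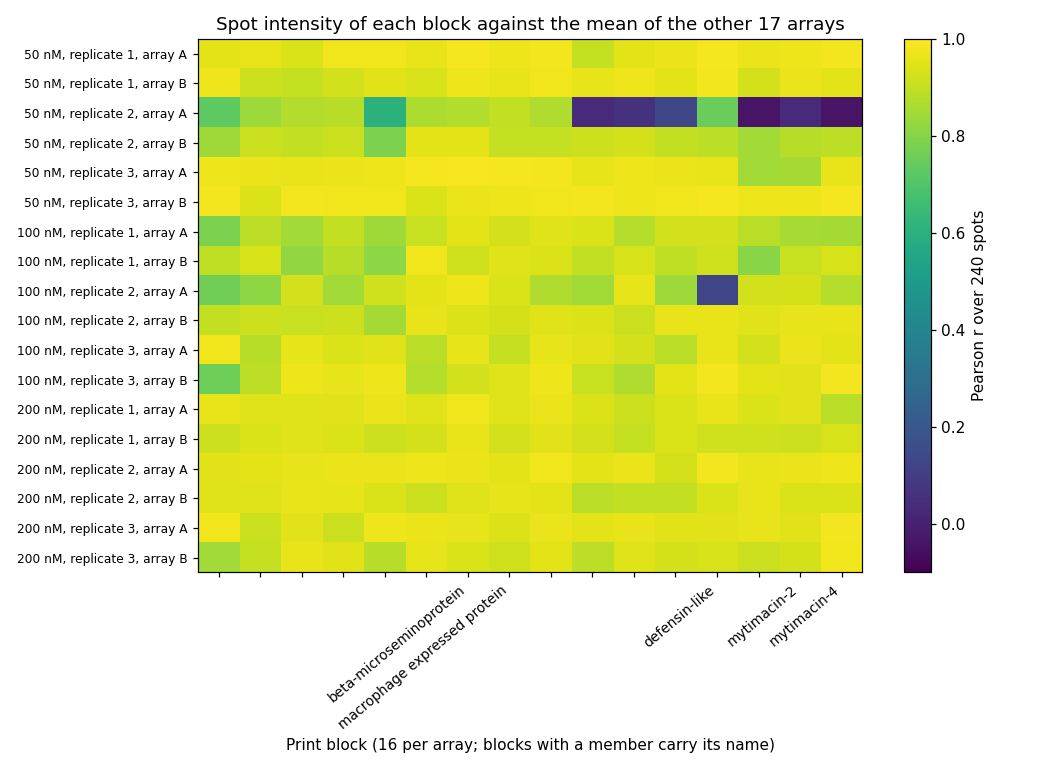
Each cell is the Pearson r of the 240 spots of 1 print block on 1 array (rows) with the mean of the other 17 arrays, and the 5 blocks that hold the probes described here carry their names. The 7 dark cells, 6 on array A of 50 nM replicate 2 and 1 on array A of 100 nM replicate 2, lie between -0.042 and 0.14, and all other cells are at 0.61 or above.

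Among the antimicrobial peptides, mytimacin-4 was the steadier of the 2 mytimacins, mussel peptides of the macin family. Its log2 ratios were -0.26, -0.59 and -0.012 at 50 nM, -0.38, -0.32 and -0.49 at 100 nM, and -0.49, -0.49 and -0.67 at 200 nM. All 9 mussels thus lay below the pool. The 3 values at 200 nM lay below the 3 at 100 nM by a narrow gap, as in 6.67% of all probes. The means were -0.29 ± 0.29, -0.40 ± 0.084 and -0.55 ± 0.10 (SD, n = 3), or 82.0, 75.9 and 68.2% of the pool. At 50 nM the interval of the mean was -0.58 to 0.012 (95%, limma), with an adjusted p of 0.99 in limma's moderated test over all probes of the array.

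For the value of -0.59, the probe lay in a displaced block on array A. In the authors' processed values, which carry the listed positions, this mussel stood at -0.22. Array A gave -0.79 and array B -0.38 for that mussel, and the realigned array A gave -0.059. With realigned blocks the mussel stood at -0.22 and the 50 nM mean at -0.16 ± 0.13 (SD, n = 3, limma adjusted p = 0.99). The 50 nM mussels then all lay above those at 100 nM, which they had overlapped. As deposited, 4.64% of all probes had all mussels at 100 nM below all at 50 nM, and the share after realignment was not computed. The 100 nM values had chosen this probe. Without the third mussel the recomputed mean at 50 nM was -0.42 at the listed positions, and with realigned blocks it was -0.24.

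The dye orientations of mytimacin-4 differed in size. At 200 nM arrays A gave -0.89 ± 0.15 and arrays B -0.21 ± 0.098 (SD, n = 3), so the distance from the pool was several times larger on arrays A. Over all mussels array A was the lower in 7 of 9, or 6 of 9 with realigned blocks. Both orientations were below 0 in all 9 mussels.

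Mytimacin-2 varied widely between mussels. Its log2 ratios were 0.043, -0.11 and -0.28 at 50 nM, -0.73, 0.85 and -0.31 at 100 nM, and -0.21, -0.65 and -0.31 at 200 nM. The doses overlapped throughout, and the highest value of all, in the second mussel at 100 nM, was found on both arrays (0.97 on A and 0.74 on B). The means were -0.12 ± 0.16, -0.060 ± 0.82 and -0.39 ± 0.23 (SD, n = 3), the last being 76.5% of the pool. The intervals ran from -0.64 to 0.41 at 50 nM and from -0.58 to 0.46 at 100 nM (95%, limma), with adjusted p of 0.99 and 0.96 in limma. Without the second mussel the 100 nM mean was -0.52 (limma adjusted p = 0.51).

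The third mussel at 50 nM owed its mytimacin-2 value to arrays that opposed each other, 1.28 on array A and -1.85 on array B. On array B the pool channel of spot 2 was saturated, at 65535 against 1595 at spot 1, and the spots gave ratios of -3.96 and 0.27. With first spots only, the 50 nM mean was 0.36, and with second spots only it was -0.59, both chosen after seeing the data. Without that mussel it was -0.032, and realigned blocks moved the second mussel only from -0.11 to -0.15.

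**Figure D2:**
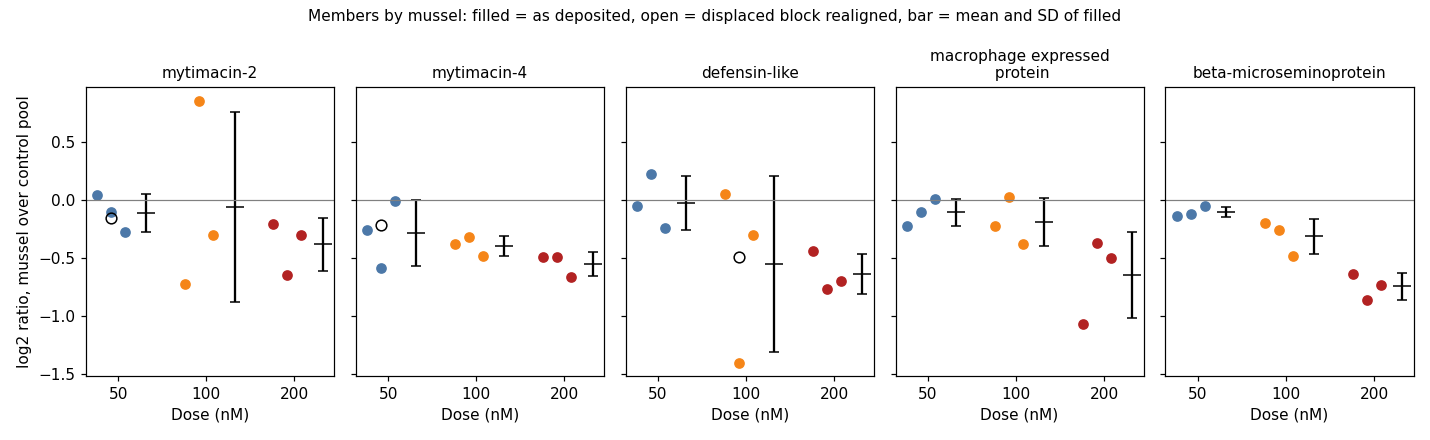
Each filled point is the log2 ratio of 1 mussel over the control pool, by dose (x axis, nM), for the 5 probes, the bar beside them is the mean and SD of 3 mussels, and open circles are values after displaced blocks were realigned. All 15 values at 200 nM lie below 0. The open circles move mytimacin-4 from -0.59 to -0.22 at 50 nM and the defensin-like probe from -1.41 to -0.50 at 100 nM.

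The defensin-like transcript has a defensin-like protein of a plant, Arabidopsis thaliana, as its best match, and defensins are cysteine-stabilised peptides that disrupt microbial membranes. Its log2 ratios were -0.051, 0.22 and -0.24 at 50 nM, 0.046, -1.41 and -0.30 at 100 nM, and -0.44, -0.77 and -0.70 at 200 nM. The 50 nM mussels lay on both sides of 0. Each of them was above all 3 mussels at 200 nM, as in 7.86% of all probes. The means were -0.025 ± 0.23, -0.55 ± 0.76 and -0.64 ± 0.17 (SD, n = 3), or 98.3, 68.1 and 64.1% of the pool.

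In the second mussel at 100 nM this probe lay in a displaced block on array A. The authors' processed value of that mussel, at the listed positions, was -0.49. In the second mussel array A gave -2.25 where array B gave -0.56, and the realigned array A gave -0.43, close to array B. Over all probes of the block, r between the ratios of the 2 arrays was -0.14 as listed and -0.26 realigned. The realigned mussel stood at -0.50, and the 100 nM mean went from -0.55 ± 0.76 to -0.25 ± 0.28 (SD, n = 3). The unadjusted limma p went from 0.032 to 0.12, and the adjusted p from 0.46 to 0.58. The interval of the recomputed mean at the listed positions was -1.05 to -0.059 (95%, limma). Without that mussel the mean was -0.13. At 50 nM the interval was -0.52 to 0.47 (adjusted p = 0.99, limma), and the mean was 0.084 without the third mussel.

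Macrophage expressed protein belongs to the perforin-like proteins, which insert pores into the membranes of engulfed microbes, and its best match here is from the oyster Crassostrea gigas. Its log2 ratios were -0.23, -0.10 and 0.0054 at 50 nM, -0.23, 0.026 and -0.38 at 100 nM, and -1.07, -0.37 and -0.50 at 200 nM. Values at 50 and 100 nM overlapped. At 200 nM the third and the first mussel lay below every other mussel, and the second, at -0.37, was above 1 mussel of 100 nM. The means were -0.11 ± 0.12, -0.19 ± 0.21 and -0.65 ± 0.37 (SD, n = 3), the last being 63.8% of the pool. The intervals were -0.45 to 0.23 at 50 nM and -0.53 to 0.15 at 100 nM (95%, limma), with adjusted p of 0.99 and 0.69. The 50 nM mean was -0.17 without the third mussel, and the 100 nM mean was -0.31 without the second mussel, -0.10 without the third and -0.048 without background subtraction.

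The lowest of these values depended on 1 spot. In the first mussel at 200 nM, array B had a net pool signal of 641 at spot 1 and 8418 at spot 2, and the spots gave ratios of -0.61 and -2.49. Array A of this mussel gave -0.62 and -0.57 at its spots. With first spots only the 200 nM mean was -0.51, and without this mussel it was -0.44. The probe was dim. Its pool channel stood at a median of 3.66 times the local background over 36 spots and its mussel channel at 3.17 times, and without background subtraction the 200 nM mean was -0.43.

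Beta-microseminoprotein stood furthest below the pool at 200 nM. In mammals it is a small cysteine-rich secreted protein, and the match here is to the frog Xenopus tropicalis. Its log2 ratios were -0.14, -0.12 and -0.057 at 50 nM, -0.20, -0.26 and -0.49 at 100 nM, and -0.64, -0.87 and -0.73 at 200 nM. All 9 mussels lay below the pool, and the 3 doses did not overlap in any pair. Of all probes, 4.64% had all mussels at 100 nM below all at 50 nM. For 200 below 50 nM the share was 7.86%, and for 200 below 100 nM it was 6.67%. The share for all pairs at once was not computed, and the values at 100 and 200 nM had chosen this probe. The means were -0.11 ± 0.044, -0.31 ± 0.15 and -0.75 ± 0.11 (SD, n = 3), or 92.9, 80.4 and 59.6% of the pool. At 50 nM the interval was -0.37 to 0.16 (95%, limma, adjusted p = 0.99), and the mean without the third mussel was -0.13.

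Signals of beta-microseminoprotein were bright, with the pool channel at a median of 51.1 times and the mussel channel at 43.9 times the local background. The 2 spots of an array differed by a median of 0.099 in log2 ratio and by at most 0.58. At 50 nM the 2 arrays of each mussel lay on opposite sides of 0. Arrays A and B gave -0.41 and 0.12 in the first mussel, 0.10 and -0.35 in the second, and 0.038 and -0.15 in the third. In the second, array A had 0.40 at spot 1 and -0.19 at spot 2, where the pool channel stood at 2.69 times background. Over all mussels array A was below 0 in 7 of 9 and array B in 8 of 9. At 100 nM the orientations differed, at -0.49 ± 0.36 on arrays A and -0.13 ± 0.086 on arrays B, and at 200 nM they were close, at -0.81 ± 0.20 and -0.69 ± 0.073 (SD, n = 3). Its block was in place on every array, so realignment left the 200 nM value as it was.

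**Figure D3:**
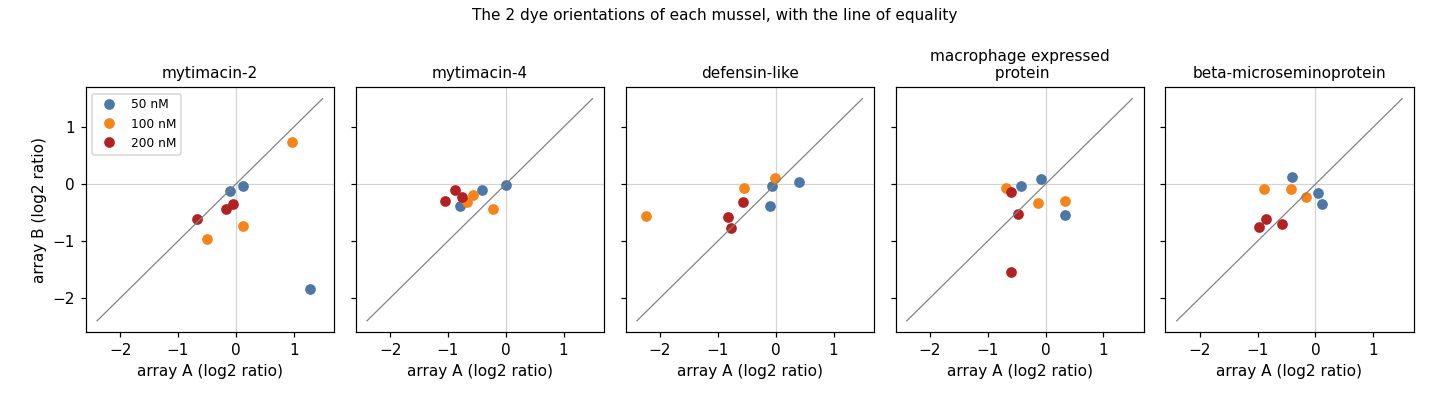
The log2 ratio of each mussel on array A (x axis) is plotted against that on array B (y axis) for the 5 probes, with colours for dose and a grey line of equality. Mytimacin-2 of the third mussel at 50 nM lies far from the line at 1.28 and -1.85, and the defensin-like probe of the second mussel at 100 nM at -2.25 and -0.56.

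No probe of the 5 passed limma's test at 50 nM (adjusted p 0.99 for each), where 0% of all probes were called lower at adjusted p under 0.05 and 0% higher. At unadjusted p under 0.05 the 5 probes gave 0 calls, where 3.75% of all probes were called in either direction. A one-class SAM with all sign flips of the 3 mussels was run on the recomputed ratios. At a false discovery rate of 0.03 it called none of the 5, and 1 probe of the array. The study used other SAM software on its own processed values, so its calls were not repeated here. Mytimacin-4 and beta-microseminoprotein were below 0 in 3 of 3 mussels, which held for 9.74% of all probes. These 2 were below 0 in 9 of 9 mussels, as were 1.15%, but their values at 100 and 200 nM had chosen them. In the authors' processed values mytimacin-4 was at 0.060 in the third mussel at 50 nM. At 100 nM none of the 3 tested probes passed (limma adjusted p 0.46 to 0.96), again with 0% of all probes called in either direction. These 3 were tested because the study's 100 nM list left them out, so this outcome is not independent of that list. The defensin-like probe alone had an unadjusted p under 0.05, as had 5.47% of all probes in the lower direction, and with realigned blocks it no longer did. The 2 probes below 0 in 3 of 3 mussels at 100 nM were again mytimacin-4 and beta-microseminoprotein, beside 16.6% of all probes. Both had been chosen on these values. The same SAM version called none of the 3 tested probes at 0.01, and 14 probes of the array.

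At 200 nM, where the probes were chosen, limma called 22 probes lower (1.15%) and 17 higher (0.885%). One of the 5 was among them, beta-microseminoprotein, a count that describes the values used in the choice and tests nothing. With realigned blocks 27 probes of the array (1.41%) were lower and 21 (1.09%) higher. Without 1 of the 3 mussels of 200 nM, limma called 0, 1 and 0 probes of the array, and without 50 nM replicate 3 it called 97. All 5 probes were below 0 in 3 of 3 mussels, as were 21.2% of all probes. The median of the 5 means was -0.11 at 50 nM, -0.31 at 100 nM and -0.64 at 200 nM, beside medians over all probes of 0.0037, 0.0042 and -0.022. With realigned blocks the 100 nM median of the 5 was -0.25.

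The study's threshold for 100 nM split the 5 probes. The 2 listed there had means of -0.31 and -0.40 at that dose, and the 3 not listed had -0.060, -0.19 and -0.55. The order of the defensin-like probe depended on how its values were read. With realigned blocks its mean was -0.25, above both listed probes, and in the authors' processed values, on which the list was drawn up, it was -0.24, above mytimacin-4 at -0.35 and beta-microseminoprotein at -0.28.

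Between doses the design allowed a test of 100 against 50 nM for 3 probes. Their 100 nM values had kept them off the study's list for that dose, so a lack of calls is not independent of that list. The difference was 0.055 for mytimacin-2 (95% interval -0.68 to 0.79), -0.085 for macrophage expressed protein (-0.57 to 0.40) and -0.53 for the defensin-like probe (-1.23 to 0.17), with an adjusted p of 0.998 for each in limma and no unadjusted p under 0.05. With realigned blocks the last was -0.23. No probe of the array passed between any 2 doses in limma, and 4.43% (100 against 50 nM), 10.2% (200 against 50 nM) and 5.89% (200 against 100 nM) had an unadjusted p under 0.05.

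Differences that involve 200 nM are given as a description. From 50 to 200 nM the log2 ratio differed by -0.27 for mytimacin-2, -0.27 for mytimacin-4, -0.62 for the defensin-like probe, -0.54 for macrophage expressed protein and -0.64 for beta-microseminoprotein. In the last 3 all mussels at 200 nM lay below all at 50 nM, as in 7.86% of all probes. From 100 to 200 nM the differences were -0.33, -0.15, -0.086, -0.45 and -0.43 in the same order, with no overlap for mytimacin-4 and beta-microseminoprotein, as in 6.67% of all probes. Several of these differences rested on 1 mussel or 1 dye orientation. With 1 mussel left out, the difference from 100 to 200 nM ran from -0.66 to 0.13 for mytimacin-2 (0.13 without 100 nM replicate 2), from -0.51 to 0.21 for the defensin-like probe (-0.51 without 100 nM replicate 2) and from -0.59 to -0.24 for macrophage expressed protein. Mytimacin-4 stood at -0.41 with arrays A only and at 0.10 with arrays B only. From 50 to 200 nM mytimacin-2 was at -0.74 with arrays A only and at 0.19 with arrays B only. Without 1 mussel the same difference ran from -0.41 to -0.13 for mytimacin-4, from -0.36 to -0.14 for mytimacin-2 and from -0.68 to -0.33 for macrophage expressed protein. With realigned blocks the defensin-like difference from 100 to 200 nM was -0.39. The means of all but mytimacin-2 were ordered 50 over 100 over 200 nM, an order shared by 22.8% of all probes.

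**Figure D4:**
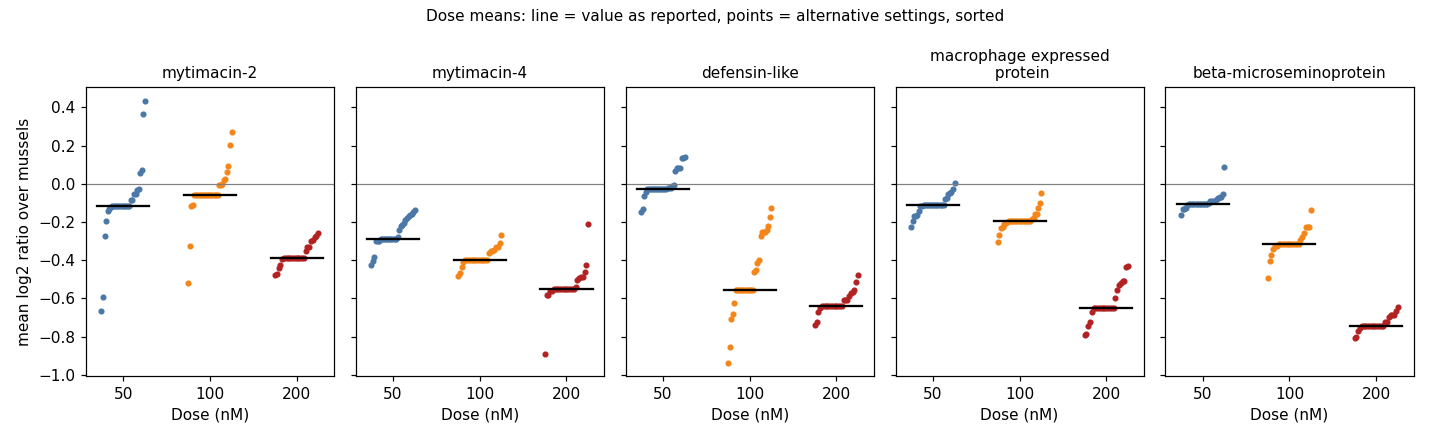
The black line is the mean log2 ratio of 3 mussels at each dose (x axis, nM) and each point is the same mean under 1 alternative setting, sorted within a dose. At 200 nM every point of every probe is below 0, and mytimacin-2 crosses 0 at both lower doses, from -0.67 to 0.44 at 50 nM.

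Across the 9 mussels, which share the pool and the doses, the 5 probes were alike to different degrees, and r depended on how the displaced blocks were read. All 5 probes were chosen for low values at the highest dose, and mytimacin-4 and beta-microseminoprotein also at the middle dose. A positive r over all doses is thus not independent of that choice and is given as a description. Neither r within a dose nor r over other pairs of probes was computed. The r of mytimacin-4 with the defensin-like probe was 0.049 at the listed positions, and with realigned blocks it was 0.60. For the defensin-like probe and beta-microseminoprotein it was 0.45 and 0.82, and for mytimacin-4 and beta-microseminoprotein 0.63 and 0.85. Macrophage expressed protein and beta-microseminoprotein stood at 0.67 with either reading. Mytimacin-2 was the least alike, with r between -0.045 and 0.32 to the other 4 after realignment.

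The 3 probes whose values were most like each of the 5 over 9 mussels were mostly ones that the study's lists do not describe (12 of 15). They were the highest of all probes by r over only 9 values. The r that such a search gives for unrelated probes was not computed. Spearman rho of the 15 ran from 0.67 to 0.97. Beta-microseminoprotein was followed by Myt01-008F11 (not described, r = 0.95), Myt01-018H06 (described as a multiple C2 and transmembrane domain-containing protein, r = 0.94, or 0.82 with realigned blocks) and Myt01-016A08 (a zona pellucida domain protein, r = 0.93). Macrophage expressed protein was followed by Myt01-006H02 (r = 0.97), Myt01-014B02 (r = 0.95) and Myt01-006E01 (r = 0.93), the second listed as without similarity. Mytimacin-2 was closest to Myt01-011C08 (r = 0.93), Myt01-013A12 (r = 0.91) and Myt01-010E01 (r = 0.91). Mytimacin-4 was closest to Myt01-004G06 (r = 0.92), Myt01-002B10 (r = 0.91) and Myt01-006B06 (r = 0.89), values that came to 0.76, 0.76 and 0.78 with realigned blocks. The defensin-like probe was closest to Myt01-004H06 (r = 0.92), Myt01-004A03 (r = 0.88) and Myt01-017F03 (r = 0.87), which came to 0.83, 0.73 and 0.60. Of the 15 probes, 5 carry the same plate number in the probe ID as the probe they follow, a number shared by 5% of all probes, and 2 lie in the same print block, which holds 6.25%.

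Other immunity probes and lectins lay on both sides of the pool. The 8 other immunity probes comprise 6 C1q domain proteins, which bind microbial surfaces, a fibrinogen-related protein and an aggregation factor of amoeboid blood cells. None passed at 50 or 100 nM in limma. At 200 nM 1 was called lower and none higher, beside 1.15% and 0.885% of all probes. The probe called was MgC1q89, at -0.58 to -0.77 in the 3 mussels (mean -0.66 ± 0.10, SD, n = 3). The study's list for 200 nM holds it, so these values went into its choice and the call is only a description. The highest at 200 nM was MgC1q8, at 0.74 ± 0.82, with mussels from -0.21 to 1.29. The medians of the 8 were -0.11, -0.25 and -0.20 at the 3 doses. At 200 nM 5 of the 8 means were below 0. MgC1q89, MgC1q48, fibrinogen-related protein 7 and the aggregation factor were below 0 in all 3 mussels. Of the 5 lectins, sugar-binding proteins, none was called at any dose, and their medians were -0.26, 0.087 and -0.11. At 200 nM they ran from -0.69 ± 0.63 (asialoglycoprotein receptor 2) to 0.80 ± 1.13 (incilarin A). The probes of both lists, and of the tissue lists below, were taken from the study's lists of responsive probes in these samples, so their values are not independent of that choice.

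**Figure D5:**
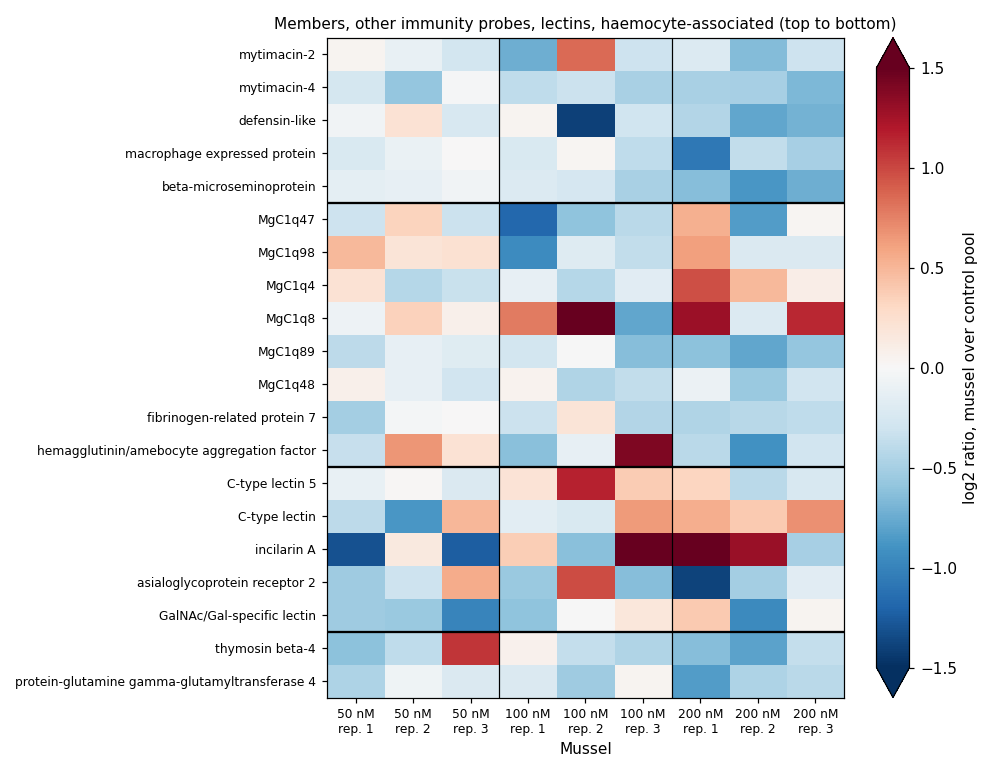
Colours give the log2 ratio of each of 9 mussels (columns) over the control pool for the 5 probes, the other immunity probes, the lectins and haemocyte-associated probes not already shown, from top to bottom, with blue below the pool. The 5 probes at the top, chosen for low values at 200 nM, are blue in all 3 mussels at that dose. So are, among the other immunity probes, MgC1q89, MgC1q48, fibrinogen-related protein 7 and the aggregation factor. MgC1q8 (mean 0.74) and incilarin A (mean 0.80) are red in most of these mussels.

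Probes associated with haemocytes also had values below the pool at 200 nM. All 3 are in the study's list for that dose, so these values went into their choice and are given as a description. The aggregation factor, thymosin beta-4, an actin-binding peptide, and a transglutaminase, a protein crosslinker, stood at -0.54 ± 0.33, -0.60 ± 0.23 and -0.57 ± 0.23 (SD, n = 3), 3 of 3 below 0. Their summed signal relative to the pool was -0.80 to -0.36 over the 3 mussels at 200 nM, -0.36 to 0.0030 at 100 nM and -0.60 to 0.97 at 50 nM. These 3 were below the pool together with the 5 probes at the highest dose, and the part of haemocyte number in the result was not tested.

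Markers of the gill itself and of other tissues were seen as well. The ciliary probes were above background on 68 to 72 of 72 spots per dose. Of these 6 probes for the cilia of the gill epithelium, 5 were below 0 at 200 nM (median -0.56, none called). The other, described as axonemal dynein light chain p33, stood at 0.75 ± 0.060 (SD, n = 3). Another probe with the same description stood at -0.92 ± 0.32. The summed signal of the 6 was -0.020 to 0.43, so it did not follow the median. The muscle, foot and byssus, and digestive gland lists had medians of -0.024, -0.33 and 0.44 at 200 nM with 0 calls in limma, and summed signals of -0.062 to 0.50, -0.30 to -0.18 and -0.48 to -0.088. No list was undetected, with 59 to 60 of 60 digestive gland spots per dose above background in both channels. The part of these tissues in the result was not tested.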

How the data were processed

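Spot intensity and local background, both channels, were read by the authors with a GSI Lumonics scanner and ScanArray Express, and the deposited intensity is before subtraction. The authors also deposited a table of log2 ratios, scaled to total intensity and LOWESS-adjusted with MIDAS, which was used as an alternative. The labels' dyes gave each ratio's direction, and channels matched them on 18 of 18 arrays. Each array has 3840 spots. On array A of the first mussel at 100 nM the header gives a different control image, and the spots of 1 file were matched by probe.

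Background was corrected with normexp (offset 50) and ratios were normalized within arrays by loess (span 0.3, 4 iterations). Spots of a probe, then arrays of a mussel, were averaged. With limma 3.58.1 (R 4.3.3) a mean for each dose was fitted to 9 mussels, with moderated two-sided tests, Benjamini-Hochberg adjustment over all probes and a threshold of 0.05. statmod 1.5.0 served the fit of correlated arrays. The spread between mussels is the only replicate error. Steps were tested on simulated data.

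A block counted as displaced where r with the other arrays was under 0.5 as listed and over 0.8 at a shift of up to 2 positions. Probes and lists were chosen with earlier results of these data known. The text names the 5 probes, the 3 probes most correlated with each, and from each list those called or the highest and lowest. Descriptions come from the study's lists, which cover 434 probes. Summed signals are log2 ratios of a list's summed intensities after correction and normalization. Intensities were not compared between probes, and sequences of the probes were not used here.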

Additional observations from a re-analysis of the deposited data

How the results depend on the processing

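The 5 probes gave no call at 50 nM, at 100 nM or between doses under any setting run. This only describes values that chose a probe, namely mytimacin-4 and beta-microseminoprotein at 100 nM and every difference that involves 200 nM. The 100 nM outcome of the other 3 is not independent of their absence from the study's 100 nM list. Adjusted p of the tested values was 0.26 or higher throughout. At 200 nM, where the values chose the probes and the counts only describe them, the 1 probe called became 2 without background subtraction, with print-tip loess and with scaling between arrays, 3 with plain subtraction, the authors' values, 18 correlated arrays, 50 nM replicate 3 turned and realigned blocks, 4 with realigned blocks and that mussel turned or left out, and 0 with arrays A only, arrays B only, first or second spots only, the added spread of a pool of 5 and SAM. Leaving out 1 mussel gave 0 to 3, with 0 without any one mussel of 200 nM and 3 without 50 nM replicate 3.

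The count of all probes called at 200 nM, 39, was 61 without subtraction, 97 with plain subtraction, 78 with print-tip loess, 20 with median centring, 108 with the authors' values, 164 with 18 correlated arrays, 0 and 3 with arrays A or B only, 120 with 50 nM replicate 3 turned, 129 and 95 with realigned blocks and that mussel turned or left out, 0 with the pool's spread, 65 with each dose alone, 3 and 7 with first or second spots only, and 9 by SAM. It was 33 without displaced blocks and 48 with realigned blocks, and 0 to 97 without 1 mussel (72, 6 and 97 without 50 nM replicates 1, 2 and 3, 11 and 25 without 100 nM replicates 1 and 2, and 0, 1 and 0 without those of 200 nM). At 100 nM, 0 became 2 with median centring, 3 with the authors' values, 18 with 18 correlated arrays, 15 and 16 with 50 nM replicate 3 turned (as deposited and realigned), 9 with realigned blocks and that mussel left out, 4 with the dose alone, 1 with second spots only, 14 by SAM, and 0 to 9 without 1 mussel. At 50 nM, 0 became 5 with that mussel turned (as deposited and realigned), 2 without it and with realigned blocks, 1 by SAM, and 0 to 2 without 1 mussel. The replicate numbers gave deviations correlated at -0.10 to 0.15, so they do not pair the mussels. With a replicate block the counts were 0, 2 and 16 at 50, 100 and 200 nM, and 0, 0 and 1 of the 5 probes were called, as without it.

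Among the tested values, none of which passed, signs changed as follows. Mytimacin-2 at 50 nM was 0.44 with arrays A only, 0.072 with 50 nM replicate 3 turned, 0.056 when also realigned and 0.36 with first spots only. At 100 nM it was 0.020 without subtraction, 0.00084 with plain subtraction, 0.094 with median centring, 0.023 in the authors' values, 0.20 with arrays A only and -0.52 to 0.27 without 1 mussel. Its difference between 100 and 50 nM was -0.061 with scaling, -0.23 with arrays A only, -0.13 with that mussel turned, -0.12 when also realigned, -0.0044 with realigned blocks without it, -0.37 with first spots only and -0.40 to 0.39 without 1 mussel. The defensin-like probe at 50 nM was 0.14 with median centring, 0.068 in the authors' values, 0.081 with arrays A only, 0.14 with that mussel turned (as deposited and realigned), 0.084 when realigned without it, and -0.15 to 0.084 without 1 mussel. Macrophage expressed protein at 50 nM was 0.0050 with first spots only, and its difference between 100 and 50 nM was 0.039 with second spots only and -0.20 to 0.0083 without 1 mussel. Beta-microseminoprotein at 50 nM was 0.086 with median centring. Of the differences that involve 200 nM, mytimacin-2 against 50 nM was 0.19 with arrays B only and 0.26 with second spots only, mytimacin-2 against 100 nM reached 0.13 and the defensin-like probe 0.21 without 1 mussel of 100 nM, and mytimacin-4 against 100 nM was 0.10 with arrays B only. The cause was not tested. At 200 nM all 5 means stayed below 0 under every setting run. The dim probe filter left out no probe. The block and spot alternatives were chosen after seeing the data.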

Other observations

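The displaced blocks reached beyond the 5 probes. They held 1680 spots of 840 probe IDs on the 2 arrays. The authors' processed ratios in these blocks correlated at 0.89 to 0.96 with the ratios at the listed positions and at 0.023 to 0.30 with the realigned ones, so the deposited table carries the listed positions. In the 281 other blocks the processed and the recomputed ratios correlated at 0.65 to 0.99 (median 0.94). In the 6 blocks of 50 nM replicate 2, array A correlated with array B of the same mussel at -0.096 to 0.21 as listed and at 0.17 to 0.26 after realignment. In the block of 100 nM replicate 2 the correlation was -0.14 as listed and -0.26 realigned.

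In the authors' processed values the defensin-like probe of 100 nM replicate 2 stood at -0.49 and mytimacin-4 of 50 nM replicate 2 at -0.22, where the recomputed ratios as listed were -1.41 and -0.59. The reason for the distance was not tested.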
